A study of Mus musculus with 2 samples.

Results

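Monocytes low in C1q were studied in DMBA-induced skin tumours of the mouse by droplet single-cell RNA sequencing, and 209 of 29006 kept barcodes met their definition. A barcode, the tag that stands for the contents of 1 droplet, was kept with at least 500 genes and at most 15% of its unique molecular identifiers (UMIs, counted transcript molecules) in mitochondrial genes. A member had Lyz2 at 10 or more UMIs per 10000, at least 1 Csf1r UMI, and Ly6c2, Ccr2 and Plac8 together at 3 or more per 10000. It also had C1qa, C1qb and C1qc together below 10, Acp5 below 2, and S100a8 and S100a9 together below 100 per 10000. These 11 genes chose the members, so their levels below are a description of the choice and not a result.

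The series asked how loss of Eed, a core subunit of the histone methyltransferase complex PRC2, changes squamous tumours and their surroundings. The Ctrl-D library came from 5-month-old Eed flox/flox mice given ethanol and DMBA. The Eed iKO-D library came from K14CrERT2;Eed flox/flox mice of the same age given hydroxyl-tamoxifen and DMBA, so both groups carry the floxed alleles and both received the carcinogen. Dorsal skin tumours were dissociated whole with collagenase, DNase and trypsin, and dead cells were removed. The keratin 14 promoter drives Cre in keratinocytes, so Eed is not deleted in monocytes by design. The labels name the cell type as epidermal cancer cells, while the members were defined by myeloid genes and are a minor part of each suspension. How many animals were pooled is not given in the sources used here. Of the Eed iKO-D members, 156 held UMIs of Xist and none of the Y-linked genes searched, 15 held only Y-linked UMIs, 15 held both and 13 held neither.

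Classical monocytes leave the bone marrow through the receptor CCR2, circulate with high Ly6C at their surface, and enter inflamed tissue and tumours. There they can lose Ly6C and acquire MHC class II molecules or the scavenger and complement genes of macrophages. A separate, patrolling monocyte stays inside vessels, with low Ly6C and high CX3CR1.

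The Eed iKO-D library held 199 members among 21484 kept barcodes, which is 0.926% (95% interval 0.803 to 1.06%). Ctrl-D held 10 among 7522, or 0.133% (0.0638 to 0.244%). Within the Lyz2 and Csf1r gate alone the shares were 22% (199 of 906; 19.3 to 24.8%) in Eed iKO-D and 35.7% (10 of 28; 18.6 to 55.9%) in Ctrl-D. Intervals for shares are exact Clopper-Pearson, those for summed counts exact Poisson and those for ratios exact conditional binomial. All of them cover counting error only. Each group is a single library, so replicates cannot check any difference and no p-values are given. The share of members among all kept barcodes also moves with how many keratinocytes each suspension held, so it does not count monocytes per tumour. The 10 Ctrl-D members are too few for a contrast and are given by their values.

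The 199 members had a median of 11643 UMIs (938 to 88682) and 3198 genes (591 to 8456), with 2706277 UMIs in all. They were set against 3 other classes of the same library. These were 325 C1q-high phagocytes, which passed the Lyz2 and Csf1r gate with C1q at 10 or more, 293 Acp5-high phagocytes, and 683 barcodes in a neutrophil gate (S100a8 and S100a9 at 100 or more per 10000, with Csf3r). Their median depths were 14029, 15607 and 5280 UMIs. A keratinocyte reference of 2179 deep, keratin-rich barcodes (median 48518 UMIs) served as a class that should lack myeloid genes. Gm42418 took a median of 10.4% of UMIs in the members (1.11 to 40.4%), 9.39% in C1q-high phagocytes, 8.0% in Acp5-high phagocytes and 21.1% in the neutrophil gate.

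Keratin transcripts were found in the members. Krt14, a basal keratin, had a median of 13.9 UMIs per 10000 (0 to 234) in members, 11 in C1q-high phagocytes and 152 in the keratinocyte reference. The keratinocyte gate (Krt14 and Krt5 at 20 or more per 10000) took in 93 of the 199 members, as it did 18175 of all 21484 kept barcodes. Krt14 UMIs were uneven, as 20 members held 62.4% of them, and 20 members held 88.2% of the UMIs of Col3a1, a fibroblast collagen. The 10 genes of the keratinocyte list summed to 5777 UMIs per 1000000 (CPM) in the members against 36089 in the reference, and the fibroblast list to 3472. A total of 21 members had Krt14 and Krt5 at 50 or more, or Col1a1 and Col3a1 at 20 or more per 10000, and values without them are given for the genes that moved most. Between the libraries 49 barcodes were shared, none of them a member.

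Several defining markers of other leukocytes were absent. Ly6g, which defines neutrophils, Cd8a and Ncr1 of T and NK cells, Jchain of plasma cells, Cpa3 of mast cells and Siglech of plasmacytoid dendritic cells were all at 0 UMIs in the 199 members. Other neutrophil-list genes were present, among them the receptors Trem1 (413 UMIs, 153 CPM) and Il1r2 (321 UMIs, 119 CPM) and the histamine enzyme Hdc (176 UMIs, 65.0 CPM). The neutrophil list summed to 590 CPM, against 265 in C1q-high phagocytes and 67574 in the neutrophil gate, and the conventional dendritic cell list to 242 CPM.

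The 4 marker genes of the class were present as the definition requires. Lyz2, which encodes lysozyme, lay at 5220 CPM in the members, 5307 in C1q-high phagocytes, 6442 in Acp5-high phagocytes and 488 in the neutrophil gate. Ccr2, the receptor for the chemokine CCL2, was at 558 CPM and had a UMI in 182 members (91.5%). Plac8, a small cysteine-rich protein of blood monocytes, was at 671 CPM and was found in 153 members (76.9%). Ly6c2, which encodes the classical monocyte surface protein, was at 169 CPM (154 to 185) in the sum but was found in only 79 members (39.7%). Ccr2 and Plac8 thus admitted more members than Ly6c2 did.

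In detail, 71 members had UMIs of all 3 genes, 65 of Ccr2 and Plac8, 41 of Ccr2 alone, 14 of Plac8 alone, 5 of Ly6c2 and Ccr2, and 3 of Ly6c2 and Plac8. The 3 genes together gave a median of 15 UMIs per member, with 1 UMI in 1 member, 2 in 3, 3 in 9 and more in 186. After thinning each barcode to 1500 UMIs, which 197 members allowed, Ly6c2 was found in 17.3% of members and 0.0459% of keratinocyte reference barcodes. Ccr2 was found in 52.8% and 0.0459%, and Plac8 in 44.7% and 5.42%. Before thinning the reference stood at 1.42%, 1.65% and 40.2% for these genes. Plac8 in a single member is therefore the least selective of the 3, since the reference held it as well.

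Members near the thresholds are set here beside the barcodes just outside. The 20 members closest to the monocyte gene threshold (3.02 to 4.22 per 10000) had 282 CPM of Chil3, 117 of Vcan and 3376 of Apoe. The 20 barcodes just outside (1.33 to 3.0) had 460, 315 and 2271. At the C1q threshold the 20 members just inside (1.65 to 9.81) and the 20 barcodes just outside (10.5 to 27.6) had 230 and 287 CPM of Chil3 and 4823 and 4359 of Apoe. Ccl8 differed more across that threshold, with 17.7 CPM inside and 1092 outside.

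Among the 25 most abundant named genes of the members were Fth1 (7489 CPM) of iron storage, the chemokine Cxcl2 (5278), Lyz2, the cytokine Il1b (5120), the MHC class II invariant chain Cd74 (3680), Vim (2662) of the cytoskeleton, the NF-κB inhibitor Nfkbia (2567) and Apoe (2144) of lipid transport. A 3′ count does not grow with the length of a transcript, but genes can differ in how fully they are counted, so this order of genes is approximate. Il1b, Cxcl2 and Nfkbia were spread over most members. Per 10000 UMIs, Il1b had a median of 44.7 (0 to 180), Cxcl2 of 42.1 (0 to 321) and Nfkbia of 25.9 (0 to 80.9). The 10th percentile was 3.17 for Il1b and 7.53 for Nfkbia, so nearly all members held transcripts of both.

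Because Cxcl2 and Nfkbia were among the most abundant transcripts, the promoters of the NF-κB-linked genes were read on both strands for the 10-letter κB motif that stands in capitals in the Cxcl2 line below. Of 36 listed inflammatory and chemokine genes, 25 had a promoter in the RefSeq table (GRCm38.p6, 250 bases before to 50 after the start), and 4 held it. Over all 32851 promoters of the same length, 29 held it (0.0883%). Cxcl2 and Nfkbia prompted the search and are among the 4, and the first count is of genes while the second is of promoters. The counts side by side are therefore no test of enrichment. The 150 bases before the start of the 4 genes follow, 5′ to 3′ on the gene's strand, with the κB letters, or their reverse complement in Nfkbia, in capitals. They lie at chr5:90891095-90891244 (Cxcl1, + strand), chr5:90903749-90903898 (Cxcl2, +), chr5:90785951-90786100 (Cxcl3, +) and chr12:55492648-55492797 (Nfkbia, −).
Cxcl1: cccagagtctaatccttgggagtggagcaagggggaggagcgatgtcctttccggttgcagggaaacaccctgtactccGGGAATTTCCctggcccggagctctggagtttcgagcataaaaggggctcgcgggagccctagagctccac
Cxcl2: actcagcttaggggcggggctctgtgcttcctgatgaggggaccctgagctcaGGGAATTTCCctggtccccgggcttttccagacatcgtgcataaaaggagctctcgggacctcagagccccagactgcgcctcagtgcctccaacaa
Cxcl3: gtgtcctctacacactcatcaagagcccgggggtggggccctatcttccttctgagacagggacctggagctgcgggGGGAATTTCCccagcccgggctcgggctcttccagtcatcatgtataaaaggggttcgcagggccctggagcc
Nfkbia: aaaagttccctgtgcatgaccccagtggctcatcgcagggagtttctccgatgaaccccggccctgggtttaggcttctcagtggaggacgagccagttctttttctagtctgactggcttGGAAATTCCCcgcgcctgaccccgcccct
The 3 chemokine promoters share the same run of letters, which begins between 97 and 71 bases before the start. A match describes these letters and is not a measured binding site.

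The levels of these genes differed in order across the classes. Cxcl2, which attracts neutrophils, was at 5278 CPM in members, 5762 in C1q-high phagocytes, 5654 in Acp5-high phagocytes and 12113 in the neutrophil gate. Cxcl1, a close relative, was at 896 CPM in members and 1375 in C1q-high phagocytes. Cxcl3 was at 270.5 CPM in members and 109 in C1q-high phagocytes, a ratio of 2.47 (2.21 to 2.77). Nfkbia was at 2567, 2304, 2214 and 2750 CPM in the 4 classes, so it differed little between them.

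Across members the inflammatory genes moved together to a degree. Spearman's rho over 199 members was 0.63 between Il1b and Nfkbia and 0.54 between Cxcl2 and Ptgs2, and after thinning (n = 197) it was 0.40 and 0.48. The members share 1 library, and their depth and share of Gm42418 were inversely related (rho −0.67), so these values are descriptive.

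**Figure D1:**
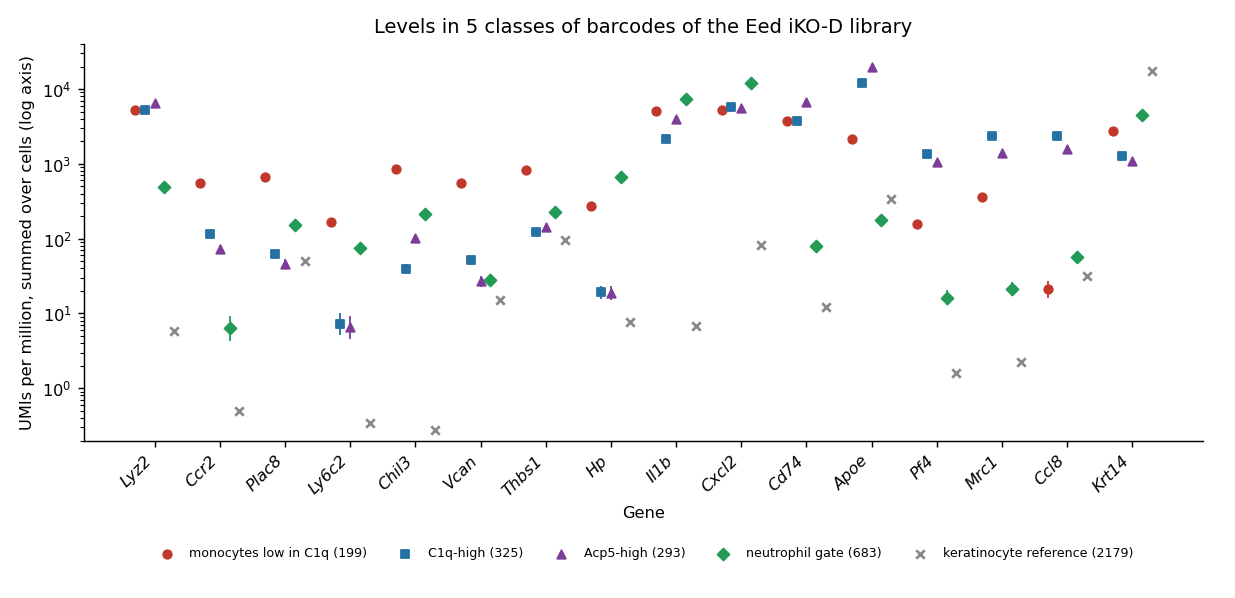
Levels in CPM (log axis) of selected genes in 5 classes of the Eed iKO-D library, summed over the barcodes of each class. Bars, drawn for the 4 myeloid classes, are 95% Poisson intervals. Chil3, Vcan, Thbs1 and Ccr2 are highest in the monocytes (846 CPM for Chil3), Hp is higher still in the neutrophil gate, and Apoe, Pf4, Mrc1 and Ccl8 are highest in C1q-high or Acp5-high phagocytes.

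The C1q-high phagocytes were the closest class by definition, chosen by the same Lyz2 and Csf1r gate with C1q at 10 or more. The monocyte gene threshold was not applied to them, and 259 of the 325 did not meet it. The classes are therefore separated by C1q and by monocyte genes together. Values of monocyte and macrophage genes in this contrast describe that choice in part. Of 11767 genes with enough UMIs, 634 (5.39%) were at least 2-fold higher in the members and 1186 (10.1%) at least 2-fold lower, with a median log2 ratio of −0.02. The fold was taken after adding 0.5 UMI to each sum.

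Genes of blood monocytes led the higher side. Chil3, a chitinase-like secreted protein of classical monocytes, was at 846 CPM (812 to 881) in members and 39.8 in C1q-high phagocytes, a ratio of 21.2 (18.4 to 24.7). Vcan, a large matrix proteoglycan, was at 556 and 51.1 CPM (10.9-fold; 9.52 to 12.5). The definition used neither gene, and both are known from blood monocytes. Across members, however, both varied with Ly6c2, a gene of the definition. Spearman's rho was 0.41 for Chil3 and 0.41 for Vcan, and 0.24 and 0.19 after thinning. Their ratios therefore describe the choice in part and are no independent check of it.

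Further genes on that side were Hp, the haemoglobin-binding haptoglobin (276 against 19.1 CPM, 14.4-fold), Thbs1, a matrix glycoprotein (823 against 124, 6.63-fold), Plcb1, a phospholipase (991 against 113, 8.78-fold), and Adgre4, an adhesion receptor of mouse monocytes (55.4 against 1.61, 34.4-fold). The secretory genes Wfdc21 (57.6 against 2.82 CPM) and Mmp8 (69.1 against 4.63), and Mcemp1 (62.8 against 5.83), a membrane protein of myeloid and mast cells, were also among the highest outside the definition. When barcodes with Krt14 and Krt5 at 10 or more per 10000 were left out of both classes, 24 members remained, and the log2 ratios were 2.31 for Vcan (3.44 with all members), 3.19 for Hp (3.85), 3.47 for Adgre4 (5.02), 3.24 for Mmp8 (3.87) and 1.82 for Mcemp1 (3.41). Without the 21 members rich in keratin or collagen, and barcodes like them in the other class, Vcan was at 4.27 and Hp at 5.17.

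Some of these are also neutrophil genes. In the neutrophil gate Hp was at 666 CPM, Wfdc21 at 882, Mmp8 at 221 and Mcemp1 at 218, above the members in each case. Chil3 (211 CPM), Vcan (28.3), Plcb1 (39.0), Thbs1 (230) and Adgre4 (2.56) were lower in the neutrophil gate than in the members. Of the neutrophil list 4 of 7 tested genes were at least 2-fold higher in members than in C1q-high phagocytes and none lower (median log2 ratio 1.27): Retnlg, Mmp8, Hdc and Trem1. Ly6g had 0 UMIs in the members, and the part of neutrophil RNA in the first 4 ratios was not tested.

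The lower side was led by genes of resident macrophages. Ccl8, a chemokine of tissue macrophages, was at 21.1 CPM in members and 2325 in C1q-high phagocytes, 110-fold lower (85.1 to 146). Lyve1, the hyaluronan receptor, was at 0.739 and 129 CPM, from 2 UMIs in the members (174-fold lower; 48.1 to 1444). Folr2, a folate receptor, was at 6.65 and 220 CPM (33.1-fold lower; 20.8 to 56), and Cd163, the haptoglobin-haemoglobin scavenger receptor, at 20.7 and 297 (14.3-fold lower; 11 to 19.1). Cd209f, a lectin, had 0 UMIs in members against 85.1 CPM, which with a floor of 3 UMIs over the class is at least 76.8-fold lower.

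The remaining named genes of that side were Fcna, a ficolin (1.85 against 135 CPM), the adhesion molecule Vcam1 (20.3 against 401), the cytokine Gdf15 (19.6 against 299) and the receptor phosphatase Ptprm (8.13 against 151). In the 24 low-keratin members the log2 ratio was −5.59 for Ccl8 (−6.77 with all members), −6.48 for Folr2 (−5.01) and −8.44 for Gdf15 (−3.92). No gene of the macrophage list went the other way. All 18 of its tested genes outside the definition were at least 2-fold lower in the members (median log2 ratio −2.44, against −0.02 over all genes). Apoe (2144 against 12082 CPM), the mannose receptor Mrc1 (364 against 2350), the selenium carrier Selenop (248 against 2071) and the platelet factor Pf4 (155 against 1368) were among them. The smallest difference in the list was that of Trem2, a lipid receptor, at a log2 ratio of −1.07.

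**Figure D2:**
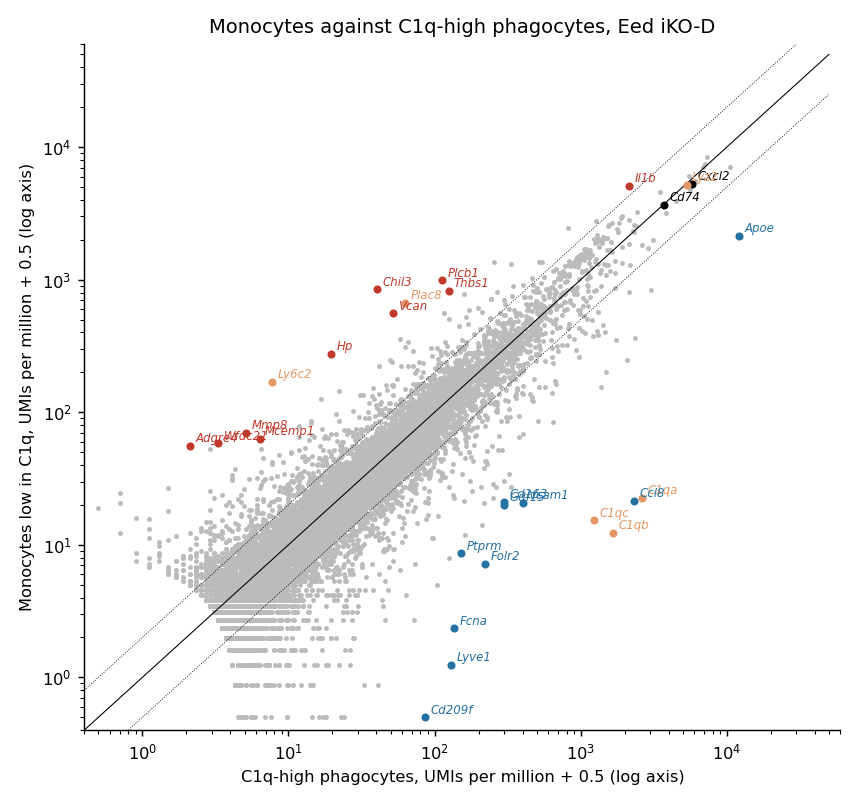
Each point is 1 gene, with its CPM plus 0.5 in C1q-high phagocytes (x axis, log) and in monocytes low in C1q (y axis, log) of the Eed iKO-D library. Red and blue mark named genes higher and lower in the monocytes, orange marks genes of the definition, black marks genes named as close to equal, and dotted lines mark 2-fold. Most genes lie between the dotted lines, Chil3 (846 against 39.8 CPM) lies far above and Ccl8 (21.1 against 2325) far below.

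The classical monocyte list had 13 of 16 tested genes at least 2-fold higher in the members and 1 lower (median log2 ratio 2.46). The exception was F13a1, coagulation factor XIII, at 401 CPM in members and 1471 in C1q-high phagocytes. The patrolling monocyte list had 6 of 13 higher and none lower (median 0.88, and 0.04 in the 24 low-keratin members). Its 6 genes were Ace, the angiotensin-converting enzyme (36.6 against 3.82 CPM), Treml4 (31.4 against 3.62), Spn (22.2 against 2.61), Itgal (73.9 against 16.5), Cd300e and Adgre4. Cx3cr1, the fractalkine receptor that defines patrolling cells, was not among them, at 93.1 CPM in members and 121 in C1q-high phagocytes. At least 2 Ace UMIs were found in 20 members and a Treml4 UMI in 51, with 11 in both.

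Of 19 genes of migration and adhesion, 8 were at least 2-fold higher, 1 was lower and 10 lay within 2-fold (median 0.70). The integrin chains Itga4 (238 against 50.3 CPM, 4.74-fold; 4.09 to 5.51) and Itgb7 (52.5 against 6.03), which pair to bind vascular and mucosal addressins, and the calcium-binding protein S100a4 (1357 against 254) were among the 8. S1pr1, the receptor for sphingosine-1-phosphate that guides egress, was the 1 lower gene. S100a6, also higher, was at 2434 CPM in members and 6589 in the keratinocyte reference, and the part of keratinocyte RNA in it was not tested.

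Genes of matrix and repair were split, with 6 of 18 higher and 4 lower (median 0.23). Fibronectin (Fn1) was at 1307 CPM in members against 335, Tgfbi at 1354 against 546, and coagulation factor X (F10) at 354 against 57.1. Mmp9, Timp2, F13a1 and Sdc4 were lower. Without the 21 members rich in keratin or collagen, and the barcodes like them in the other class, the median was −0.08.

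Lysosomal genes were lower in the members, 8 of 18 by at least 2-fold and none higher (median −0.95). The cathepsin Ctsb was at 836 CPM against 3040, Ctsd at 319 against 806, and the tetraspanin Cd63 at 140.0 against 638. Of 18 transcription factors of monocytes and macrophages, 1 was higher and 3 were lower. Irf4, a regulator of antigen-presenting cells, was at 45.8 against 17.3 CPM, and the macrophage factor Maf (164 against 682) was among the 3 lower ones.

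Of 18 chemokine ligands, 8 were at least 2-fold lower, 2 were higher and 8 lay within 2-fold (median −0.87). Ccl2, a ligand of CCR2, was at 348 CPM in members and 1756 in C1q-high phagocytes (5.05-fold lower; 4.72 to 5.40), and Ccl7, another ligand of that receptor, at 201 and 1498 (7.44-fold lower; 6.82 to 8.13). Without the barcodes rich in keratin or collagen Ccl7 was at 119 and 1607 CPM (13.5-fold lower; 11.9 to 15.3). The ligand list summed to 9700 CPM in members, 20351 in the 66 C1q-high phagocytes that also met the monocyte gene threshold and 18068 in the other 259. The 2 higher genes were Cxcl3, given above, and Cxcl9 (13.3 against 6.44 CPM).

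Among inflammatory cytokines and mediators the median was close to that over all genes, with 3 of 18 higher and 2 lower (median −0.19). Il1b was at 5120 against 2142 CPM (2.39-fold; 2.33 to 2.45), Ptgs2, the inducible cyclooxygenase, at 1370 against 521 (2.63-fold; 2.50 to 2.77), and Il6 at 116 against 34.8 (3.35-fold; 2.77 to 4.05). Il10, an anti-inflammatory cytokine, was at 64.3 against 376 (5.84-fold lower; 5.00 to 6.87), and Il12b was at 0. Tnf was at 227 CPM against 389, short of a 2-fold difference.

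Of 21 interferon response genes, 3 were higher and 3 lower (median −0.30, and 0.58 in the 24 low-keratin members). Ifitm6, an antiviral membrane protein of monocytes, was at 78.3 against 11.3 CPM and Ms4a4c at 159 against 50.7, while Ifit2 was at 8.87 against 52.1. Isg15, a ubiquitin-like protein, was close to equal at 94.6 and 91.3 CPM. It reached 2 per 10000 in 24 members and Rsad2 in 15, of which 7 were shared, so these transcripts sat in a small number of members.

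Hypoxia and glycolysis genes had 6 of 20 higher and none lower (median 0.80), among them the lactate carrier Slc16a3 (148 against 46.5 CPM) and the vasoactive peptide Adm (51.4 against 11.3, 4.56-fold; 3.32 to 6.34). Without the barcodes rich in keratin or collagen, Adm had 19 of its 139 UMIs left in the members and was no higher there, at 8.64 against 10.6 CPM (ratio 0.815; 0.452 to 1.41), while Slc16a3 was at 145 against 42.9 CPM. The list summed to 4355 CPM in the members and 8743 in the keratinocyte reference. The median was 0.50 without the barcodes rich in keratin or collagen, and the part of keratinocyte RNA in the list was not tested. Cell cycle genes of G2 and M had 7 of 15 lower and none higher (median −0.92, and −3.99 in the 24 low-keratin members), for example the proliferation antigen Mki67 at 54.0 against 112 CPM.

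Genes of PRC2 did not differ by 2-fold in either direction in any of 10 tested (median 0.02). Eed itself had 114 UMIs in the Eed iKO-D members, 42.1 CPM (34.7 to 50.6), against 30.4 in C1q-high phagocytes and 45.7 in the keratinocyte reference. The 10 Ctrl-D members held 2 Eed UMIs. A 3′ count does not report on a deleted exon, so these values do not check the genotype.

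**Figure D3:**
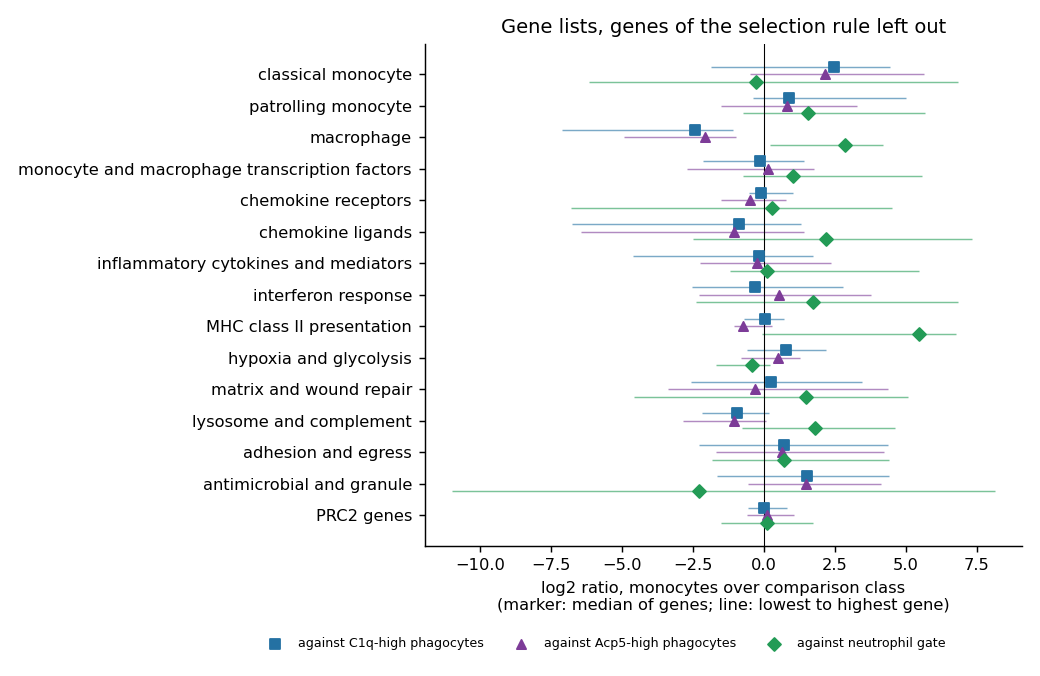
Log2 ratio of the monocytes over each of 3 comparison classes for 15 gene lists, with genes of the definition left out. Markers give the median over the tested genes of a list and lines run from its lowest to its highest gene. Against C1q-high phagocytes the classical monocyte list has a median of 2.46 and the macrophage list one of −2.44, and against the neutrophil gate the MHC class II list has 5.48.

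Against Acp5-high phagocytes, the class with osteoclast-like genes, 927 of 11498 genes (8.06%) were at least 2-fold higher in the members and 931 (8.1%) lower (median log2 ratio 0.07). Of the classical monocyte genes 14 of 16 were higher (median 2.17), and of the macrophage genes 17 of 18 were lower (median −2.07). The Acp5-high class had no condition on monocyte genes or C1q, so these list values too describe the choice in part. Vcan had the highest ratio, 20.6 (17.2 to 24.8), with 27.0 CPM in Acp5-high phagocytes. Retnla, a secreted protein induced by interleukin 4, was at 193 against 21.7 CPM. Ccl8 was 74.4-fold lower, and Atp6v0d2, a subunit of the osteoclast proton pump, was at 1.48 against 63.7 CPM (43.1-fold lower; 16.7 to 159). The macrophage elastase Mmp12 was at 80.2 against 843 CPM. The comparisons share the 199 members, so their values are not independent of each other.

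Against the neutrophil gate 2261 of 11788 genes (19.2%) were at least 2-fold higher in the members and 1672 (14.2%) lower (median 0.24). MHC class II genes were far higher, 9 of 10 by at least 2-fold (median 5.48), with Cd74 at 3680 against 79.3 CPM and H2-Eb1 at 1014 against 19.4. The membrane proteins Ms4a6c (473 against 9.80 CPM) and Ms4a4c (159 against 1.28) and the chemokine Ccl9 (588 against 17.1) were also higher. Csf3r, S100a8 and S100a9 define the neutrophil gate. The other 11 tested genes of the neutrophil list were all at least 2-fold lower in members (median −6.79). Retnlg was at 4.43 against 2123 CPM, the granule protein Lcn2 at 19.6 against 1416 and the chemokine receptor Cxcr2 at 4.06 against 470. The classical monocyte list, which holds genes that neutrophils share, was divided, with 6 of 16 higher and 7 lower (median −0.28).

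The C1q-high phagocytes can be divided by the same monocyte genes, and 66 of the 325 met that threshold. In these 66 Chil3 was at 148 CPM, Vcan at 96.7, Plcb1 at 173 and Thbs1 at 213, each below the members. Ccl8 was at 1236 CPM, Folr2 at 142 and Lyve1 at 48.4, each above the members and below the C1q-high phagocytes as a whole. For these 7 genes, named from the 2 ends of the contrast above, the barcodes that met both sets of thresholds lay between the classes. They did not do so for every list. The MHC class II list summed to 20053 CPM in the 66, against 9744 in members and 10263 in all C1q-high phagocytes. The interferon response list summed to 3619 CPM in the 66, against 3160 and 2490. Whether they are single cells or droplets with 2 cells was not tested.

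MHC class II genes varied widely among the members. They encode the molecules that present peptides to CD4 T cells, and their levels as a list were close between members and C1q-high phagocytes (0 of 10 at 2-fold, median 0.05, and 1.19 in the 24 low-keratin members). Cd74 was at 3680 and 3717 CPM (ratio 0.990; 0.966 to 1.01) and H2-Aa at 1310 and 1438 (0.911; 0.875 to 0.948). Within the members, however, Cd74 ran from 0 to 194 per 10000 with a median of 17.1 and a lower quartile of 0.905. H2-Aa had a median of 1.73 and an upper quartile of 18.9, and an H2-Aa UMI was found in 59.8% of members. After thinning this was 44.2% of members and 0.642% of the keratinocyte reference. The equal sums therefore stood over a wide spread among members.

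The 4 genes H2-Aa, H2-Ab1, H2-Eb1 and Cd74 varied together, with Spearman's rho between 0.89 and 0.94 for the 6 pairs over 199 members. Of 10 listed class II genes 6 had a promoter in the RefSeq table. Of these 6, 2 held the Y box letters CTGATTGG on either strand and the others did not. Over all 32851 promoters 1346 held them (4.10%). The letters were searched as a known part of class II promoters, and genes stand beside promoters here. The counts are therefore no test of enrichment. The 150 bases before the start of the 2 genes are shown with these letters in capitals. They lie at chr17:34287824-34287973 (H2-Aa, − strand) and chr17:34305717-34305866 (H2-Eb1, +) of GRCm38.p6. The Y box is a part of the class II promoter module that binds NF-Y.
H2-Aa: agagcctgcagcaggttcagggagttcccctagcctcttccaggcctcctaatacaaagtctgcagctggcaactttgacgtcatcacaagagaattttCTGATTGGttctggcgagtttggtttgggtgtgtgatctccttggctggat
H2-Eb1: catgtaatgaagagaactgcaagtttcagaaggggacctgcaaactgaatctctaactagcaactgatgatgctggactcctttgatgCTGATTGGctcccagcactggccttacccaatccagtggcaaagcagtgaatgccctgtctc
The letters begin 51 bases before the start of H2-Aa and 62 bases before that of H2-Eb1, so both genes hold them at a like distance.

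Members were ordered by the summed level of the 4 genes and divided into a low group of 67 (0 to 3.89 per 10000), a middle group of 66 (4.00 to 82.3) and a high group of 66 (82.6 to 449). The division was made on measured values, so it describes the members and tests nothing. Median depth was alike at 11643, 11654 and 11820 UMIs, as was the median of Krt14 at 13.5, 13.9 and 14.7 per 10000. The summed levels of non-myeloid genes were not alike, with Krt14 at 3523, 3025 and 1751 CPM, Col1a1 at 1282, 934 and 247 and the fatty acid binding protein Fabp5, abundant in keratinocytes, at 2260.1, 1327 and 1019. Their part in the differences between the groups was not tested, and values without the members rich in keratin or collagen follow.

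Monocyte genes were lower where MHC class II was high. Ly6c2 was at 280 CPM in the low, 125 in the middle and 86.4 in the high group, and Hp at 464, 250.4 and 92.0. Chil3 was at 1023, 1118 and 396 CPM, and Vcan at 743, 666 and 248, so the step for these lay between the middle and the high group. Thbs1 was at 1209, 855 and 366 CPM. Ccr2 ran the other way, at 481, 569 and 632 CPM, and Lyz2 had no such order (4587, 6088 and 5109). Ly6c2, Ccr2 and Plac8 chose the members by their sum, so a member with little Ly6c2 and Plac8 had to reach the threshold through Ccr2. The opposite orders of Ly6c2 and Ccr2 therefore describe the choice in part and are not a result.

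Genes of antigen presentation and of macrophages were higher where MHC class II was high. Ciita, the class II transactivator, was at 2.03, 16.9 and 94.3 CPM, and H2-DMb1, a chain of the peptide-exchange molecule, at 21.3, 107 and 338. Irf4 was at 5.08, 22.9 and 112 CPM, the co-stimulatory ligand Cd86 at 362, 557 and 1005, and the integrin Itgax (CD11c) at 15.2, 34.9 and 110. Mrc1 was at 156, 254 and 695 CPM, Apoe at 1326, 1736 and 3428, and the interleukin 1 receptor antagonist Il1rn at 91.4, 134 and 435. Each of these 8 genes was lowest in the low and highest in the high group.

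The inflammatory genes did not follow that order as closely. Il1b was at 3931, 6019 and 5594 CPM, Cxcl2 at 4730, 5702 and 5490, and Nfkbia at 2608, 2605 and 2486. Tnf (136, 151 and 397) and the chemokine Ccl4 (370, 332 and 1213) were high in the high group only. Spearman's rho of the MHC class II sum was 0.10 with Il1b, 0.02 with Cxcl2 and 0.02 with Krt14.

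Over the 199 members, rho of the MHC class II sum was −0.37 with each of Chil3, Ly6c2, Vcan and Plac8, 0.38 with Mrc1 and 0.76 with the sum of H2-DMa, H2-DMb1 and Ciita. After thinning to 1500 UMIs (n = 197) these were −0.28, −0.26, −0.27, −0.21, 0.26 and 0.50. Ly6c2 and Plac8 are genes of the definition, so their values are a description of the choice. All points share 1 library and its free RNA. Without the 21 members rich in keratin or collagen, Chil3 was at 1313, 1253 and 437 CPM in the low, middle and high group, Mrc1 at 216, 299 and 664, and Apoe at 1629, 1852 and 3484. Col3a1 was at 1785, 698 and 154 CPM with these members and at 161, 149 and 149 without them.

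**Figure D4:**
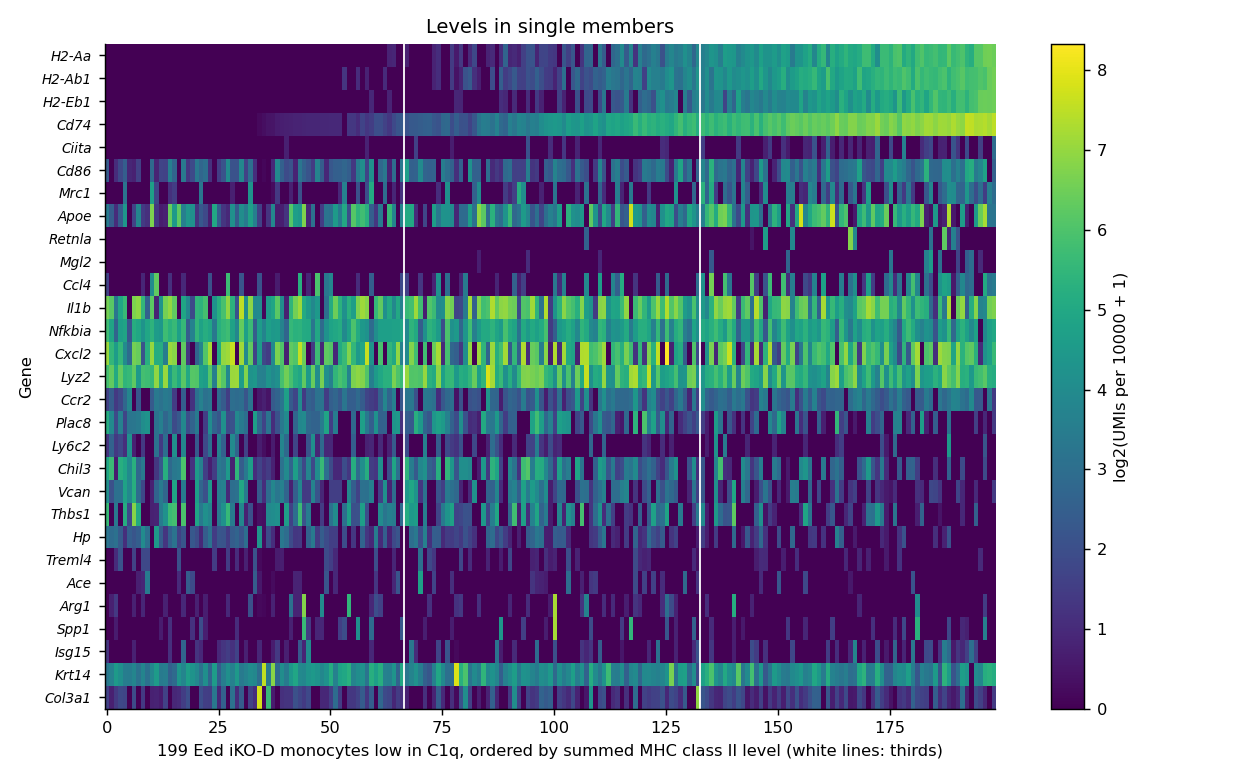
Levels of 29 genes (rows) in the 199 Eed iKO-D members (columns), as log2 of UMIs per 10000 plus 1, with members ordered from left to right by the sum of H2-Aa, H2-Ab1, H2-Eb1 and Cd74. White lines separate the groups of 67, 66 and 66. Il1b, Nfkbia, Cxcl2 and Lyz2 run across all groups, Hp and Vcan thin out to the right, and Retnla, Arg1 and Spp1 appear in a few columns.

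Presence of Ly6c2, a gene of the definition, gave a like division. The 79 members with a Ly6c2 UMI (median 12522 UMIs) had 1277 CPM of Chil3 and the 120 without (10766) had 485, a ratio of 2.64 (2.41 to 2.88). Hp was 3.55-fold higher in those with Ly6c2. Cd74 was at 1541 CPM with and 5469 without Ly6c2, Mrc1 at 131 and 558, and Cx3cr1 at 49.5 and 130. Krt14 was at 4309 and 1512 CPM and Col3a1 at 1370 and 535, so the members with Ly6c2 also held more keratin and collagen RNA, and its part in the division was not tested.

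Several genes linked with suppressive or repair states were confined to few members. For Arg1, which consumes arginine, and Spp1, osteopontin, 20 members held 94.9% and 94.5% of the UMIs, and 7 members each reached 10 per 10000, of which 3 were shared. Retnla was found in 11 members, 1 of which held 241 of its 522 UMIs. Of the 8 members with at least 5 per 10000 of Retnla, 7 lay in the MHC class II high group and none had a Ly6c2 UMI. Mgl2, a lectin of dermal antigen-presenting cells, reached 2 per 10000 in 9 members, all of them in the high group, and 1 of these was among the 8 with Retnla. In contrast 20 members held 28.9% of Il1b, 29.4% of Lyz2 and 31.9% of Ccr2 UMIs.

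**Figure D5:**
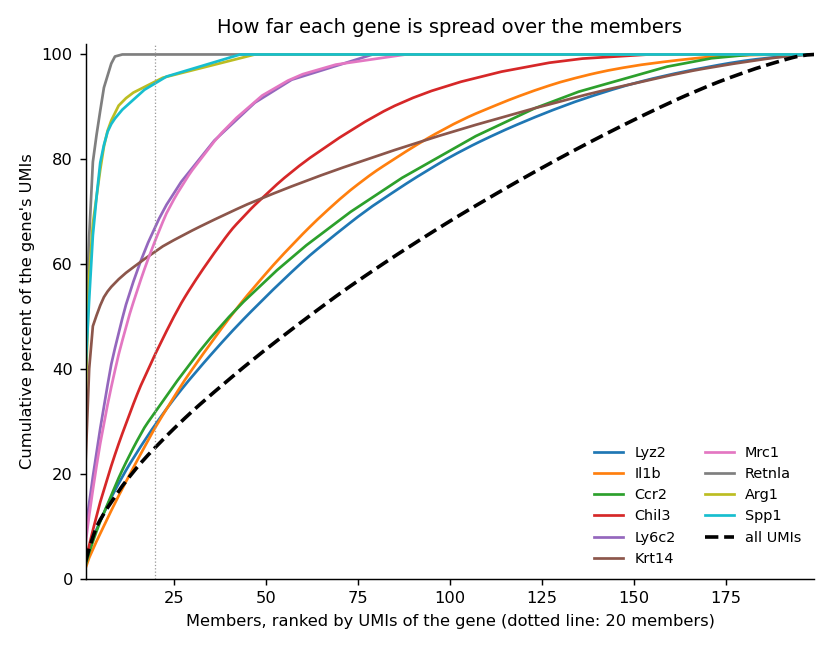
Cumulative percent of a gene's UMIs (y axis) over the 199 Eed iKO-D members ranked from the most to the fewest UMIs of that gene (x axis), with the dashed line for all UMIs. Lines that rise fast belong to genes held by few members. At 20 members, marked by the dotted line, Arg1 has reached 94.9%, Ly6c2 67.2%, Chil3 42.9% and Lyz2 29.4%.

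The 10 Ctrl-D members held 58722 UMIs in all, with a median of 3792 (1104 to 23672). Lyz2 was at 10831 CPM (10005 to 11706) with UMIs in all 10, Ccr2 at 409 CPM in 6 and Plac8 at 2078 CPM (1725 to 2481) in 8 members. Ly6c2 had 3 UMIs in 3 members, 51.1 CPM (10.5 to 149). Chil3 had 16 UMIs in 4 members, 272 CPM (156 to 442), against 846 CPM in the Eed iKO-D members. Vcan had 3 UMIs. Krt14 was at 7970 CPM, but 1 member held 454 of its 468 UMIs, and without that member it was at 399 CPM. The median over members was 4.32 per 10000, against 13.9 in the Eed iKO-D members. That member also held 23672 of all UMIs, and without it Plac8 was at 3481 CPM, Chil3 at 456 and Ly6c2 at 85.6. Col3a1 was at 0, which allows up to 62.8 CPM by the exact interval.

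The inflammatory genes were also present in Ctrl-D members. Il1b was at 2708 CPM (2303 to 3163) in 8 members and at 4223 CPM without the keratin-rich member, Cxcl2 at 2725 CPM in 7 and Nfkbia at 2095 CPM. Ptgs2 had 1 UMI, 17.0 CPM (0.431 to 94.9), against 1370 CPM in Eed iKO-D. Cd74 was at 6778 CPM in 6 members and H2-Aa at 2878 in 5. With 10 members from 1 library of another depth, a difference in genotype, treatment, library or sampling cannot be told apart.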

How the data were processed

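The authors deposited 1 matrix of whole-number UMI counts per library, for 32285 genes and 8039 (Ctrl-D) or 22259 (Eed iKO-D) barcodes. The counts were not normalized. The labels state a target of 8013 to 19511 captured cells. Cell Ranger, the counting program, is named in 3 versions: the extract protocol has 2.1.0, the file headers have 7.1.0, and the submitters' processing notes have 8.0 with mm10 as the build. Total UMIs were 120500892 and 289511009.

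Barcodes were chosen by the thresholds in the text. No clustering was done and no doublet caller was run. UMIs were summed per class and scaled to 1000000 (CPM). Ratios used genes with at least 20 UMIs over both classes, with 0.5 UMI added, and 2-fold was the size counted. The members and lists were chosen with earlier results of these data known. The MHC class II groups, the division by Ly6c2, the keratinocyte reference, the H2-Eb1 values, the Ctrl-D values without 1 member and the neutrophil list without Csf3r were chosen after seeing the data. Named genes were those of the definition, the 25 most abundant, the 12 highest and 12 lowest log2 ratios per contrast after adding 5 CPM (with 50 UMIs and 50 CPM as minimum in the higher class, and a level at or above that in keratinocyte and fibroblast barcodes), and from each list the most abundant members and the largest ratios; genes of mitochondria, ribosomal proteins and sex chromosomes and genes with clone names did not qualify. Others were named after their values were seen. Shares of barcodes with a UMI were also taken after thinning to 1500 UMIs. Of the gene IDs 99.6% were in the mm10 annotation. Calculations ran in Python 3.11.15 with numpy 2.4.6, pandas 2.3.3, scipy 1.17.1 and matplotlib 3.10.9, and were tested on simulated data. Alternatives covered the barcode filter, the thresholds, keratin-rich and deep barcodes, scaling and the UMI minimum. A few genes that this rule chose are not reported here.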

Additional observations from a re-analysis of the deposited data

Results flagged for a closer look

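For 3 genes the ratio of the monocytes to C1q-high phagocytes lay on opposite sides of 1 in the libraries, a difference that was not tested and that has 1 library on each side. Ccl9, a chemokine ligand of CCR1, had a ratio of 6.30 in Ctrl-D, from 51 UMIs in 10 members and 9 UMIs in 9 C1q-high phagocytes, and of 0.750 in Eed iKO-D (588 against 784 CPM). H2-Ab1, a class II beta chain, had a ratio of 0.625 in Ctrl-D (3764 against 6022 CPM) and of 1.08 in Eed iKO-D (1354 against 1248 CPM). It was found in 5 of 10 Ctrl-D members and in 9 of 9 Ctrl-D C1q-high phagocytes. Retnla had a ratio of 1.31 in Ctrl-D and of 0.510 in Eed iKO-D (193 against 378 CPM). Its Ctrl-D values came from 138 and 117 UMIs, each of them in 1 barcode.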

How the results depend on the processing

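With 1 library per group no replicate could be left out. No paired analysis was possible because each group has 1 library. Leaving out barcodes with Krt14 and Krt5 at 10 or more per 10000 reduced the 199 members to 24. Ly6c2 was then found in 29.2% of members (39.7% with all members) and H2-Aa in 79.2% (59.8%). The rank correlation of MHC class II was −0.66 with Chil3 (−0.37) and 0.53 with Mrc1 (0.38), and the neutrophil contrast had 1033 genes higher and 808 lower (2261 and 1672). Without the 5% of barcodes with the most UMIs, 613 genes were higher against Acp5-high phagocytes (927). With at least 50 UMIs, which tests fewer genes, 412 were higher and 754 lower against C1q-high phagocytes (634 and 1186), 580 and 595 against Acp5-high phagocytes (927 and 931), and 1083 lower against the neutrophil gate (1672).

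Of 864 values of named genes under the alternatives, 731 moved by less than their interval, 133 moved further and 0 changed direction. These genes were named for the largest ratios of each contrast, and some are genes of the definition. A change of direction was therefore unlikely from the start, and its absence is no check of the results. Of 1026 list medians 67 changed sign, 62 of them from a size under 2-fold. The other 5 were plasmacytoid genes against C1q-high phagocytes (−0.27, from 1.46) without keratin-rich barcodes, and, without the deepest 5%, endothelial genes against C1q-high phagocytes (0.020, from −1.13), fibroblast genes against Acp5-high phagocytes (−0.045, from 1.05) and T and NK genes against the neutrophil gate (1.49, from −1.19; 1.55 with at least 50 UMIs). The cause was not tested. After 21 members rich in keratin or collagen were left out, an alternative chosen after seeing the data, medians against C1q-high phagocytes were 2.52 for classical monocyte, −2.33 for macrophage and −0.17 for keratinocyte genes. Depth limits the 10 Ctrl-D members most, where a gene with 0 UMIs may lie anywhere up to 62.8 CPM.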

Other observations

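The class II beta chain gene H2-Eb1 and the alpha chain gene H2-Aa gave different proportions of UMIs in the libraries. In the 10 Ctrl-D members H2-Eb1 made up 4 of 173 UMIs of both genes, which is 2.31% (0.633 to 5.81%), while in the 199 Eed iKO-D members it made up 2743 of 6288, or 43.6% (42.4 to 44.9%). In C1q-high phagocytes the share was 21.7% in the Ctrl-D library, and the Eed iKO-D library had 43.3%. Over all kept barcodes the gap was smaller, with 29.4% (28.6 to 30.1%) in Ctrl-D against 42.6% (42.2 to 43.0%) in Eed iKO-D. All 4 Ctrl-D members with at least 10 H2-Aa UMIs had under 10% of H2-Eb1, as did 10 of 17 such Ctrl-D barcodes in the whole Lyz2 and Csf1r gate, and 2 of 74 Eed iKO-D members. The proportion was computed after it was noticed, rests on 1 library each, and its source was not tested.

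Patterns of genes on the scale of single members held further values. Rsad2, an interferon-induced antiviral enzyme, reached 2 per 10000 in 15 members, and 10 of these lay in the MHC class II high group. Gzmb, a protease of cytotoxic lymphocytes, had 50 UMIs in the members, in 2 of them, while Cd8a and Ncr1 were at 0. The patrolling genes Treml4 and Adgre4 were at 37.6, 42.1 and 14.6 CPM and at 70.1, 62.6 and 32.5 CPM in the MHC class II low, middle and high groups, and Cx3cr1 was at 57.9, 80.7 and 144.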
